A study of Homo sapiens with 7 samples.

Results

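The 10 genes described here belong to antioxidant defence and were followed from nascent transcription to polysomes in HCT116, a human colorectal carcinoma cell line. They are the 6 peroxiredoxins PRDX1 to PRDX6, thioredoxin (TXN), NAD(P)H quinone dehydrogenase (NQO1) and both subunits of glutamate-cysteine ligase (GCLM and GCLC). They were picked by symbol from the 20072 symbols of the deposited table, and all 10 were present and passed the filter on low values that left 14305 genes for testing. Transcription rate (TR) was measured by GRO-seq in 2 libraries, mRNA abundance (RA) by RNA-seq in 3 libraries and translation activity (TA) by sequencing of polysome-bound mRNA in 2 libraries. All 7 came from unperturbed cells of the line, grown without serum in McCoy's 5A medium with epidermal growth factor, insulin and transferrin. For TR, isolated nuclei extended their engaged transcripts with Br-UTP and the labelled RNA was captured. For TA, cells were treated with cycloheximide for a short time before polysomes were collected from a sucrose gradient, a step that the methods do not name for TR and RA. Nothing in the design compares cells with and without oxidative stress, so every comparison below is between the 3 parameters of the same line.

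Peroxiredoxins are abundant enzymes that reduce hydrogen peroxide and organic peroxides through a reactive cysteine. Most of them are returned to the reduced state by thioredoxin, while PRDX6 draws on glutathione, whose synthesis begins with glutamate-cysteine ligase. The transcription factor NRF2 (NFE2L2) is kept low by KEAP1 and, when stabilised by oxidants or electrophiles, binds antioxidant response elements (ARE) near genes such as NQO1, GCLM, GCLC, TXN and PRDX1.

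Because NRF2 acts through AREs, the RefSeq promoter windows (GRCh38.p14, 250 bases before to 50 after each start) were searched for the ARE core TGACNNNGC on both strands, together with the letters TATAAA of a TATA box and GGGCGG of a GC box. Of the genes, 8, with 9 windows, were in the promoter table, PRDX1 and PRDX6 not. The ARE core stood in 1 of the 8 genes, GCLM, and in 13.3% of all 35116 windows. TATAAA stood in 2 of the 8, GCLC and TXN, and in 11.5% of all windows. GGGCGG stood in 7 of the 8 and in 45.0% of all windows. The ARE and TATA matches are shown because few of these promoters hold them, with the motif in capitals. The GCLM site holds the ARE core in reverse orientation at -34 from the start (chr1:93909448-93909472, minus strand). The TATA matches lie at -29 in GCLC (chr6:53545117-53545138, minus strand) and at -30 in TXN (chr9:110256524-110256545, minus strand), where the same letters on the other strand overlap.
GCLM: cgatttctGCTTAGTCAttgtcttc
GCLC: ccgtagtcTATAAAacctggag
TXN: tgccagttTATAAAgggagaga
A match describes these letters only, and the window leaves out more distal sequence.

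Values were given as RPKM, mapped reads scaled to exon length and library size, so a level is a share of a library and can be compared between genes per length. Such shares cannot tell fewer transcripts of a gene from more of the rest. Library sizes worked out from the RPKM values were 3391897 and 5629982 reads for TR and 20299018 to 30805391 reads for RA and TA. Of 9 markers of colorectal epithelium 6 were at 1 RPKM or more in RA (KRT8, KRT18, KRT19, EPCAM, CDH1 and CDX2), while VIL1, CDX1 and LGALS4 were near 0. Of 7 markers of other cells 1 reached 1 RPKM, COL1A1 at 11.5 RPKM, and the summed level of the list in RA was 10.3 to 13.9 RPKM against 1909 to 2558 RPKM for the epithelial list.

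The 10 genes together took a rising share of the reads along the 3 parameters. They held 0.0884% and 0.0881% of the reads in the 2 TR libraries, 0.283% to 0.365% in the 3 RA libraries and 0.515% and 0.485% in the 2 TA libraries, and these ranges did not overlap. The span between the highest and the lowest of the 10 widened at the same time, from 22.2-fold in TR to 54.0-fold in RA and 86.8-fold in TA. The study reports a spread over all expressed genes that rises in the same order. The widening is thus not particular to these 10. PRDX1 was the highest and GCLM the lowest in all 3 parameters.

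The cytosolic enzymes PRDX1 and PRDX2 led the family in transcription. PRDX1, the most abundant peroxiredoxin here, had a TR of 177 RPKM in both libraries, an RA of 763, 564 and 536 RPKM, and a TA of 1188 and 1145 RPKM. Its groups were separate and ascending, and RNA-seq library 1 stood above the other two. PRDX2 had a TR of 105 and 103 RPKM, an RA of 309, 168 and 216 RPKM, and a TA of 377 and 509 RPKM. Again no groups overlapped, although the RA libraries differed 1.84-fold among themselves, and the step from TR to RA was the smallest of the family.

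PRDX3, the mitochondrial member, had a TR of 33.7 and 35.4 RPKM, an RA of 200.1, 153 and 159 RPKM, and a TA of 311 and 298 RPKM. PRDX4, which works in the endoplasmic reticulum, had a TR of 22.7 and 28.5 RPKM, an RA of 144, 217 and 184 RPKM, and a TA of 367 and 326 RPKM. PRDX4 was thus the least transcribed peroxiredoxin in both TR libraries, yet its TA lay above that of PRDX3 and PRDX6 in both TA libraries. Its TR rested on 71 and 148 reads, the fewest of the 10 genes in each TR library.

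PRDX5, found in mitochondria, peroxisomes and cytosol, had a TR of 60.9 and 50.6 RPKM, an RA of 262, 281 and 243 RPKM, and a TA of 446 and 390.3 RPKM. PRDX6, the glutathione-dependent enzyme, had a TR of 39.4 and 36.8 RPKM, an RA of 165, 140.5 and 154 RPKM, and a TA of 232 and 252 RPKM. For both genes the 3 groups were again separate, in the order TR, RA, TA. The share of all genes with separate groups was not computed, so separation is not a trait shown for this family.

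For the reductant and the NRF2 targets outside the family, TA overlapped RA. TXN, the electron donor of most peroxiredoxins, had a TR of 53.3 and 49.7 RPKM, an RA of 296, 273 and 232 RPKM, and a TA of 213 and 274 RPKM. Its TA overlapped its RA. NQO1, a quinone reductase and widely used readout of NRF2, had a TR of 66.9 and 66.8 RPKM, an RA of 330.2, 262 and 195 RPKM, and a TA of 339.9 and 283 RPKM, which also overlapped.

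GCLC, the catalytic subunit of glutamate-cysteine ligase, had a TR of 20.2 and 21.4 RPKM, an RA of 35.9, 80.8 and 53.3 RPKM, and a TA of 91.02 and 45.8 RPKM. Both TR libraries lay below every RA library, and RA and TA overlapped over a wide range. GCLM, the modifier subunit, had a TR of 7.71 and 8.23 RPKM, an RA of 12.2, 12.2 and 10.1 RPKM, and a TA of 16.3 and 10.6 RPKM. Over all genes tested the median TR was 14.2 RPKM, the median RA 8.94 RPKM and the median TA 6.34 RPKM.

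**Figure D1:**
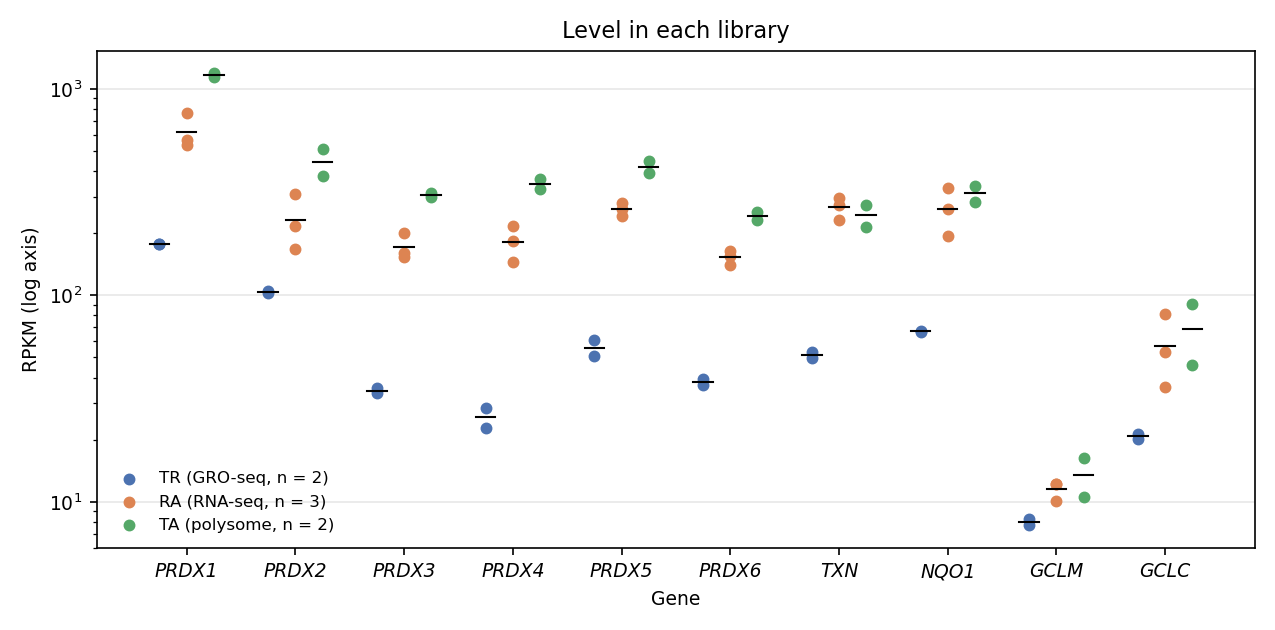
Level of each gene in each library, in RPKM on a log axis, with 1 point per library (TR, n = 2; RA, n = 3; TA, n = 2) and a black bar at the group mean. For the 6 peroxiredoxins the TA points lie above the RA points, while for TXN, NQO1, GCLM and GCLC the RA and TA points overlap. The share of all genes with TA points above the RA points was not computed.

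By mean level the order in TR was PRDX1, PRDX2, NQO1, PRDX5, TXN, PRDX6, PRDX3, PRDX4, GCLC and GCLM, and only PRDX5 and TXN overlapped as neighbours. In RA the order was PRDX1, TXN, NQO1, PRDX5, PRDX2, PRDX4, PRDX3, PRDX6, GCLC and GCLM, and the 7 genes from TXN to PRDX6 each overlapped the next. In TA the order was PRDX1, PRDX2, PRDX5, PRDX4, NQO1, PRDX3, TXN, PRDX6, GCLC and GCLM, with overlap between PRDX2 and PRDX5, between PRDX4, NQO1 and PRDX3, and between TXN and PRDX6. TXN moved from second in RA to seventh in TA.

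The stability index, log2(RA/TR), compares mRNA with nascent RNA. It was above 0 at an adjusted p under 0.05 in 9 of the 10 genes (limma on log2(RPKM + 0.1), Benjamini-Hochberg adjustment over the 14305 genes), where 19.2% of all genes were above 0 and 48.0% below 0 by the same rule. PRDX4 had the largest index of the 10, 2.81 (SE 0.23, adjusted p = 1.62e-05), a 7.01-fold higher level in RA than in TR. TXN followed with 2.36 (SE 0.21, adjusted p = 2.85e-05) and PRDX3 with 2.29 (SE 0.19, adjusted p = 1.94e-05). PRDX5 had 2.23, NQO1 1.94 and PRDX1 1.79, and PRDX6 was 4.01-fold higher in RA than in TR (adjusted p = 2.44e-05). GCLC had 1.37 (SE 0.38, adjusted p = 0.0127) and PRDX2 1.11 (SE 0.30, adjusted p = 0.0108). GCLM had 0.52 with a 95% interval of 0.00063 to 1.04, which missed the threshold after adjustment (adjusted p = 0.0711). All 6 pairs of an RA and a TR library were above 0, but they come from the same values and add no support. Neighbours in this order had overlapping intervals throughout. Without TR library 1 or TR library 2 the calls of PRDX2 (adjusted p = 0.0734 and 0.0837) and GCLC (0.112 and 0.103) were lost, and without either TA library GCLM passed (0.0429 and 0.0412), with indices that moved by little or not at all.

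The median stability index of the 10 genes was 1.97 and that of all genes -0.58. Centring each library on its median raised every stability index by 0.67, every translation index by 0.50 and every TA to TR index by 1.17 on the log2 scale. After centring, the stability calls over all genes were 5066 above and 4814 below 0 in place of 2743 and 6870, and 10 of the 10 genes were called above 0. Among all genes tested, the stability indices of the 10 lay between the 79.0th percentile (GCLM) and the 99.5th (PRDX4).

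The translation index, log2(TA/RA), compares polysome-bound with total mRNA. It was above 0 at an adjusted p under 0.05 in 6 of the 10 genes, the 6 peroxiredoxins, where 6.66% of all genes were above 0 and 29.2% below. PRDX2 had 0.97 (SE 0.30, adjusted p = 0.0370), PRDX4 0.95 (SE 0.23, adjusted p = 0.0168), PRDX1 0.93 (SE 0.29, adjusted p = 0.0385) and PRDX3 0.84 (SE 0.19, adjusted p = 0.0139). PRDX5 had 0.67 (SE 0.21, adjusted p = 0.0367) and PRDX6 0.66 (SE 0.18, adjusted p = 0.0228), 1.59-fold and 1.58-fold. In each of the 6, all 6 pairs of a TA and an RA library were above 0. These pairs come from the same values as the calls, and the share of all genes with such pairs was not computed, so they add no support.

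None of the other 4 genes passed the threshold in the translation index by limma, 0 did at an unadjusted p under 0.05 and 0 by voom on the reads. NQO1 had 0.27 (95% interval -0.33 to 0.88), GCLC 0.27 (-0.61 to 1.14) and GCLM 0.20 (-0.32 to 0.71), where adjusted p-values from limma were 0.443, 0.616 and 0.527. TXN had -0.14 (-0.63 to 0.36, adjusted p = 0.65), with 2 of 6 pairs above 0, and its sign turned to 0.37 when each library was centred on its median. The difference between the peroxiredoxins and these 4 genes was not tested, and the intervals of NQO1, GCLM and GCLC include values as high as those of PRDX5 and PRDX6.

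The translation calls rest on few libraries. Leaving out TA library 1 or TA library 2 left 0 of the 10 genes past the limma threshold (4 and 5 at an unadjusted p under 0.05), leaving out RA library 3 left 1 and leaving out RA library 2 left 3, while the indices of the 6 peroxiredoxins stayed between 0.58 and 1.18 in those fits. Without RA library 1 the count was 6. After centring, the translation calls over all genes were 2713 above and 1404 below 0 in place of 953 and 4173, and 6 of the 10 genes were called.

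**Figure D2:**
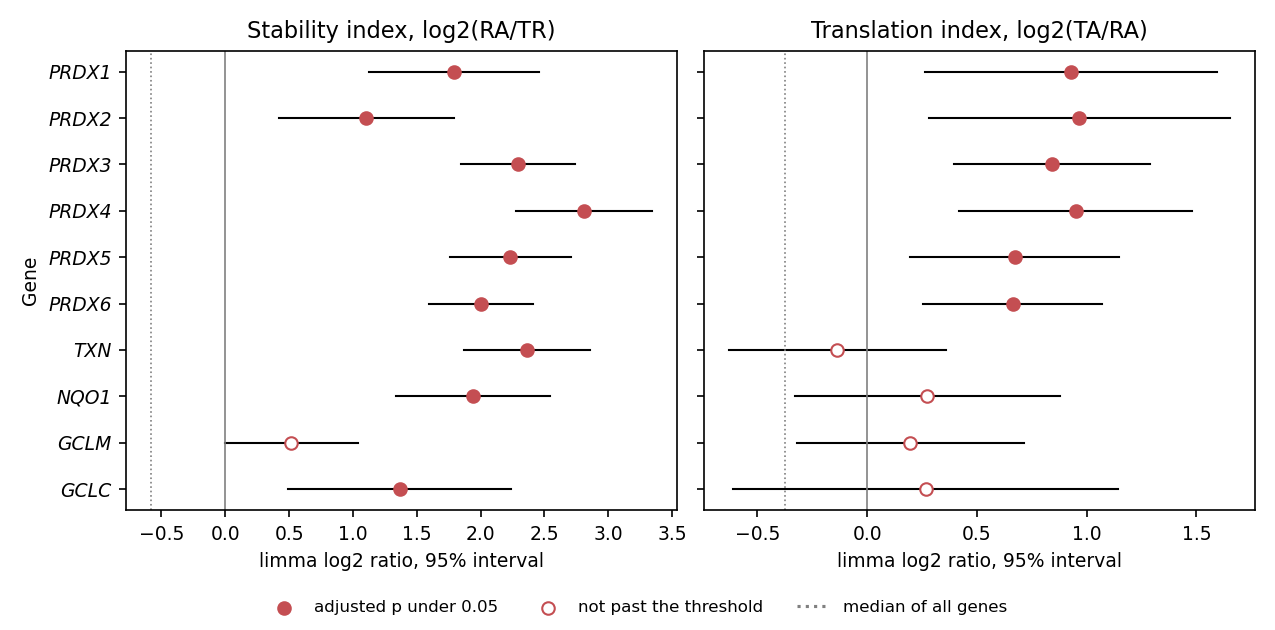
Stability index (left) and translation index (right) of each gene on the log2 scale, with 95% intervals from limma. Filled points passed an adjusted p of 0.05, and the dotted line is the median of all genes, -0.58 on the left and -0.37 on the right. All intervals on the left lie above the dotted line, and on the right those of the 6 peroxiredoxins lie above 0.

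Both indices were called above 0 in all 6 peroxiredoxins and in 0 of the other 4 genes, where 3.55% of all genes (508) had both. This count holds only where the translation calls do, so it is 0 without either TA library. Both indices share the RA libraries, so each is given by its own values above. Taken from end to end, the TA to TR index, log2(TA/TR), was above 0 at an adjusted p under 0.05 in all 10 genes, where 17.0% of all genes were above 0 and 57.5% below. It ran from 0.72 in GCLM (SE 0.25, adjusted p = 0.0280) and 1.63 in GCLC (SE 0.42, adjusted p = 0.00723) to 3.14 in PRDX3 (SE 0.21, adjusted p = 4.49e-06) and 3.76 in PRDX4 (SE 0.25, adjusted p = 4.31e-06). The last is a 13.5-fold higher level on polysomes than in nascent RNA. The calls of GCLM and GCLC were lost without TR library 1 (adjusted p = 0.121 and 0.0733), TR library 2 (0.0904 and 0.0658) or TA library 1 (0.189 and 0.0517), and those of the other 8 genes were kept.

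**Figure D3:**
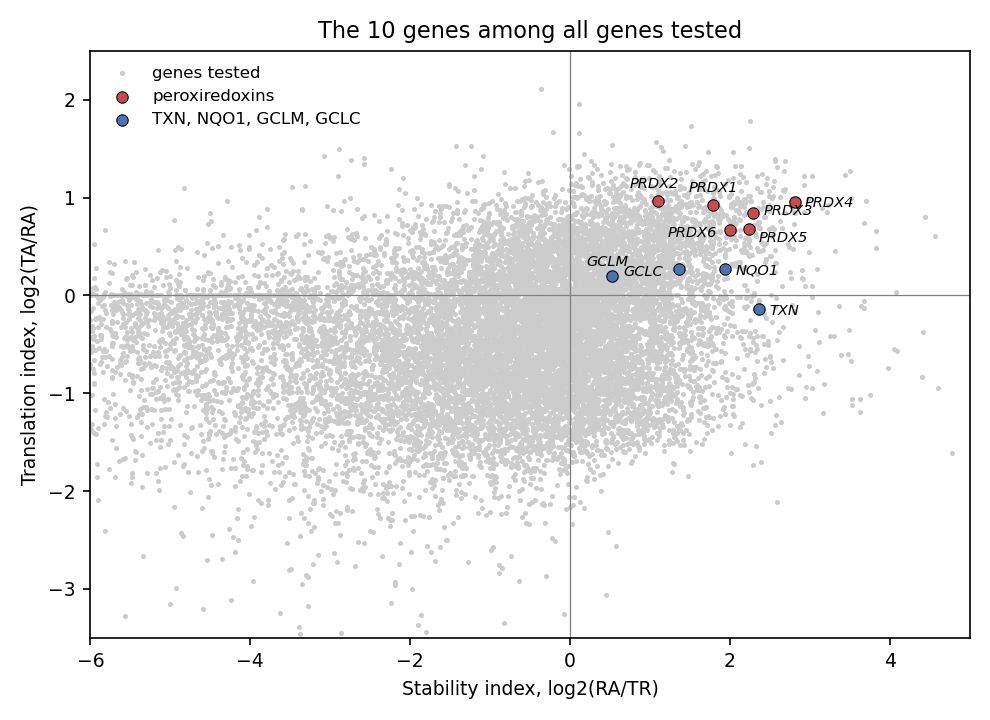
Stability index against translation index, both log2, for the genes tested (grey, 13946 drawn, 359 beyond the axes), the 6 peroxiredoxins (red) and TXN, NQO1, GCLM and GCLC (blue). The peroxiredoxins lie to the upper right, with TXN far to the right at a translation index of -0.14.

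Within the peroxiredoxin family, 4 members took a share of TR that lay outside their share of RA. PRDX1 held 40.3% to 41.1% of the summed RPKM of the 6 genes in TR, 35.9% to 41.4% in RA and 39.2% to 40.7% in TA, ranges that overlapped. PRDX2 held 23.83% to 23.95% in TR but 11.03% to 16.8% in RA and 12.9% to 17.4% in TA. PRDX4 went from 5.18% to 6.62% in TR to 7.83% to 14.2% in RA and 11.2% to 12.6% in TA, and PRDX3 from 7.67% to 8.21% in TR to 10.05% to 10.9% in RA and 10.2% to 10.7% in TA. PRDX5 held 11.7% to 13.9% in TR, 14.2% to 18.4% in RA and 13.4% to 15.3% in TA. For PRDX2, PRDX3, PRDX4 and PRDX5 the TR libraries lay outside the range of the RA libraries, and the RA and TA ranges overlapped. PRDX6 held 8.53% to 8.97% in TR, 8.93% to 10.3% in RA and 7.95% to 8.64% in TA, so that TR and RA overlapped and RA and TA did not. Shares of a sum are not independent, since a lower share of PRDX2 raises those of the rest. With 2 TR and 3 RA libraries these differences carry no test.

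**Figure D4:**
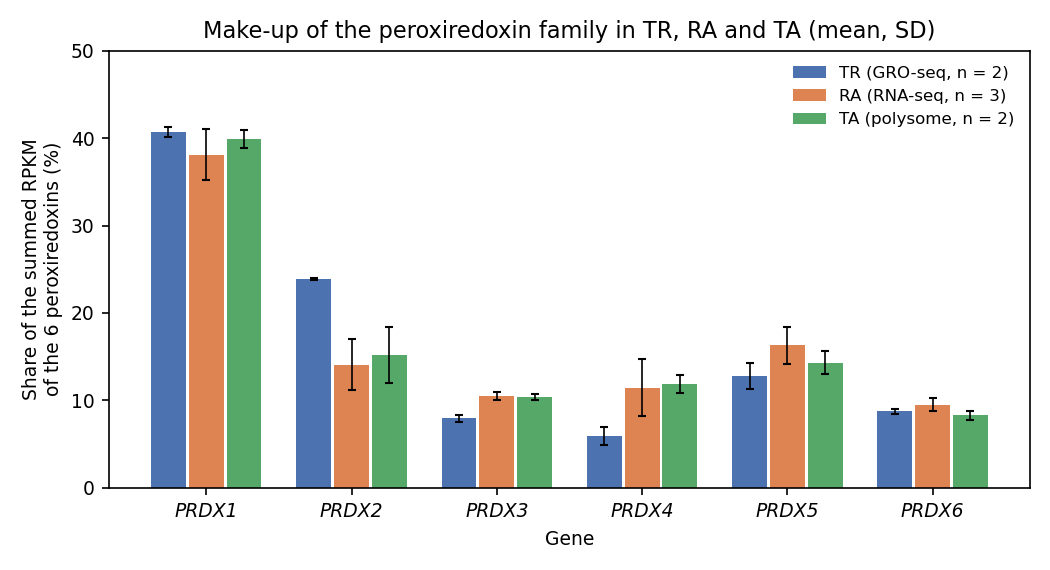
Share of each peroxiredoxin in the summed RPKM of the 6 genes, in percent, as the mean of the libraries with the SD (TR, n = 2; RA, n = 3; TA, n = 2). The share of PRDX2 is lower and the shares of PRDX3 and PRDX4 are higher in RA and TA than in TR, while PRDX1 stays near 40% (mean 40.7% in TR, 38.1% in RA and 39.9% in TA).

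Ratios within a library need no scaling between libraries. TXN per PRDX1 was 0.281 and 0.301 in TR, 0.387 to 0.483 in RA and 0.179 and 0.240 in TA, so the 3 parameters did not overlap and RA was the highest. NQO1 per PRDX1 was 0.377 and 0.378 in TR, 0.363 to 0.465 in RA and 0.247 and 0.286 in TA, with TA below the rest. The geometric mean of the peroxiredoxins over that of the other 4 genes was 2.06 and 2.09 in TR, 2.44 to 3.19 in RA and 4.10 and 5.37 in TA, without overlap. These ratios were chosen with the values known and carry no test.

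GCLM per GCLC, the ratio of the glutamate-cysteine ligase subunits, was 0.382 and 0.385 in TR, 0.151 to 0.339 in RA and 0.179 and 0.231 in TA. RA lay 0.85 below TR on the log2 scale, with no overlap, which gave p = 0.2 in a two-sided exact permutation test, the smallest p that 2 against 3 libraries allow. TA lay 0.07 below RA (exact permutation p = 1). The spread within RA came from GCLC, which differed 2.25-fold between RA libraries 1 and 2, while GCLM was 12.2 RPKM in both.

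**Figure D5:**
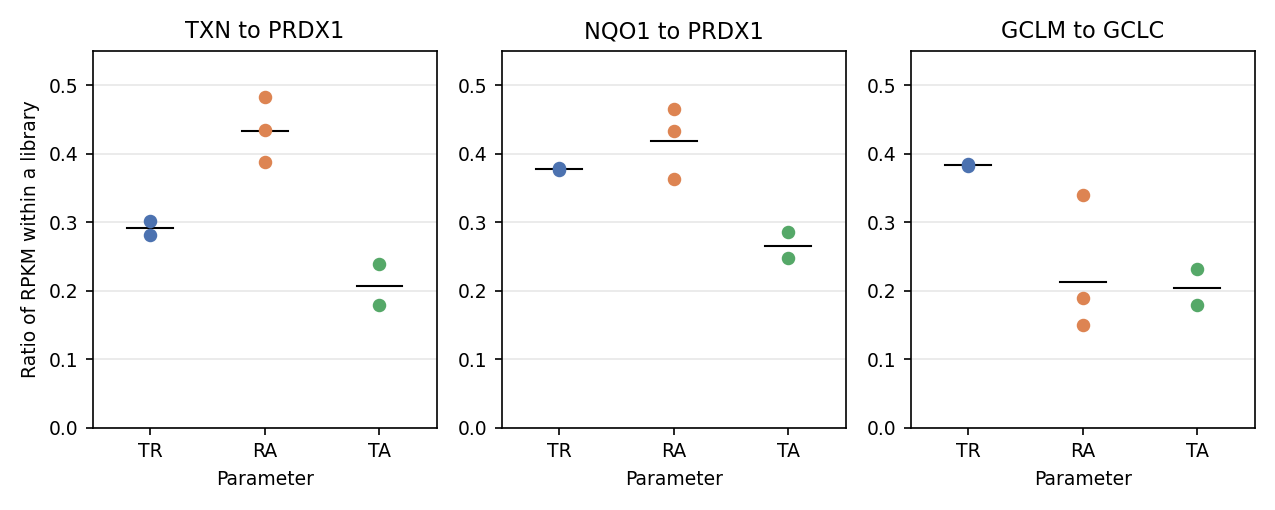
Ratio of RPKM within each library for TXN to PRDX1, NQO1 to PRDX1 and GCLM to GCLC, with 1 point per library (TR, n = 2; RA, n = 3; TA, n = 2) and a bar at the geometric mean. TXN to PRDX1 is highest in RA and lowest in TA, and GCLM to GCLC is highest in TR.

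The counts of the following gene lists are to be read against the shares of all genes called above and below 0, which were 19.2% and 48.0% in the stability index and 6.66% and 29.2% in the translation index. Among 15 tested partners of thioredoxin and the peroxiredoxins, the stability index was called above 0 in 7 and below 0 in 6, with a median of -0.10. TXNL1, a thioredoxin-like protein, had 2.02, and SRXN1, the sulfiredoxin that repairs over-oxidised peroxiredoxins, had 1.41 (adjusted p = 0.00902). TXNDC17 had -1.45 and TXNRD3, a thioredoxin reductase, -1.21 (adjusted p = 0.0316). In the translation index 1 of the 15 was above 0, near the share of all genes, and 1 below, and the median was -0.06. The gene above was GLRX2, a mitochondrial glutaredoxin, with 1.14 (adjusted p = 0.00765). The pseudogenes PRDX1P1 and PRDX2P1 were on the list and are not analysed here.

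Of 20 tested genes of glutathione synthesis and use, 9 were above and 3 below 0 in the stability index (median 0.44), and 5 above and 3 below in the translation index (median 0.03). GSR, which reduces oxidised glutathione, had a stability index of 1.97 (adjusted p = 1.47e-05), and GSTP1, a glutathione transferase, had 1.80. GSTP1 and CTH, which makes cysteine, had translation indices of 0.99 (adjusted p = 0.0399) and 1.11 (adjusted p = 0.0251). Of the selenium-dependent glutathione peroxidases, GPX4 had -1.32 (adjusted p = 0.0287) and GPX1 -1.30 (adjusted p = 0.0259), while GPX2 (-0.97, adjusted p = 0.0541) and GPX3 (-0.19, adjusted p = 0.649) did not pass. GPX2 and GPX3 were near 0 in RA (mean 0.144 and 0.0437 RPKM) and TA (0.0217 and 0.0277 RPKM). Their translation indices thus rest largely on the added 0.1 RPKM and measure little. Their stability indices, -6.09 and -6.79, were among the 3 called below 0. GPX4 and GPX1 differed between the TA libraries: GPX4 was 39.5 and 105 RPKM, GPX1 16.7 and 40.9 RPKM. GPX8 had a stability index of -0.71.

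Of 22 tested other NRF2 targets, 13 were above and 0 below 0 in the stability index by limma (median 1.09), and none was below at an unadjusted p under 0.05 or by voom. The 2 highest were TKT of the pentose phosphate pathway (2.23, adjusted p = 3.92e-05) and AKR1B1, an aldose reductase (2.05, adjusted p = 5.33e-05). In the translation index 6 were above and 3 below 0, with a median of 0.30. AKR1B1 had 0.96 (adjusted p = 0.0111). The ferritin subunits FTH1 and FTL had -1.27 (adjusted p = 0.0249) and -1.24 (adjusted p = 0.0499).

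Of 17 tested regulators of NRF2, 3 were above and 3 below 0 in the stability index (median -0.03). In the translation index 1 was above and 5 were below (median -0.38). The count above 0 in stability and the counts in translation were near the shares of all genes. The 3 of 17 below 0 in stability lay under the share of all genes, 48.0%. By voom on the reads 2 were above 0 in the stability index and 0 in the translation index. SQSTM1, the receptor that sequesters KEAP1, had 1.10 in stability and 1.04 in translation (adjusted p = 0.0220 and 0.0492), and KEAP1 had a stability index of 0.57 (adjusted p = 0.0241). NFE2L3, a relative of NRF2, had a stability index of -2.66 and the coactivator EP300 -0.78. MAFG, a small MAF partner of NRF2, and the kinase GSK3B had translation indices of -1.39 and -1.05.

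Of 10 tested other enzymes against peroxide, superoxide and their damage, 3 were above and 1 below 0 in the stability index (median 0.26), and 0 above and 2 below in the translation index by limma (median 0.16), where 3 were above at an unadjusted p under 0.05 and 0 by voom. PARK7, known as DJ-1, had a stability index of 2.44 and catalase (CAT) 1.78 (adjusted p = 9.92e-05). The methionine sulfoxide reductase MSRA had -0.76. MSRB1 and NQO2 had translation indices of -1.05 (adjusted p = 0.0369) and -0.65 (adjusted p = 0.0243). TXNRD1, SRXN1 and SLC7A11 stand on 2 of the lists and count in each.

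PRDX1 and GCLM, as the highest and lowest of the 10 in RA, were set beside the genes most like them by Euclidean distance of log2 levels over the 7 libraries. Nearest to PRDX1 were ENO1 (0.77), CFL1 (0.91) and NDRG1 (0.93). Nearest to GCLM were BOP1 (0.21), SP100 (0.31) and RAB11FIP1 (0.34).

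The gene models bear on some of these levels. In GRCh37 the 10 genes lie at chr1:45976586-46008404 (PRDX1, minus strand), chr19:12907634-12912614 (PRDX2, minus), chr10:120927232-120938324 (PRDX3, minus), chrX:23682379-23704514 (PRDX4, plus), chr11:64085593-64089283 (PRDX5, plus), chr1:173446469-173457954 (PRDX6, plus), chr9:113006090-113018787 (TXN, minus), chr16:69740899-69760571 (NQO1, minus), chr1:94350755-94375012 (GCLM, minus) and chr6:53362139-53481768 (GCLC, minus). Of the PRDX1 transcript, 38.5% of exon bases overlap exons of MMACHC on the opposite strand. Whether the counting used strand is not given in the sources used here. The library preparation described in the methods names no step that keeps the strand of the RNA. MMACHC itself had a mean TR of 84.1 RPKM, RA of 6.71 RPKM and TA of 9.40 RPKM, and its part in the TR of PRDX1 was not tested. Antisense non-coding genes overlap 26.7% of PRDX2, 22.8% of NQO1 and 6.66% of GCLC exon bases. Of the 50-base windows along each transcript, between 0 (PRDX4, PRDX5 and GCLC) and 5.81% (TXN) were found exactly elsewhere in the genome. Each such window spans 50 bases, so the share of transcript bases touched can be higher and was not computed. How the counting treated reads that fit several places is not given in the sources used here. UTRs made up 14.6% (PRDX4) to 83.1% (GCLM) of the transcripts.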

How the data were processed

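The deposited table held RPKM values for 7 libraries. Per the study's methods, the authors removed low-quality reads, mapped the rest to hg19 with TopHat, counted reads over exons only with HTSeq and divided by exon length and mapped reads; intronic GRO-seq reads were thus left out. The submitters' processing notes also name CASAVA, without its role. Tool versions, gene annotation and the strand setting of the counting are not given in the sources used here. The methods call the replicates biological.

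From the deposited RPKM values, library sizes and reads were worked out, and 100% of values came out within 0.001 of a whole read. The filter kept 14305 of 20072 genes, those whose mean over TR, RA or TA libraries reached 1 RPKM. All 7 libraries entered 1 limma fit (version 3.58.1, R 4.3.3) with an intensity trend on log2(RPKM + 0.1), with two-sided tests and Benjamini-Hochberg adjustment at 0.05. Folds are on this scale and understate changes of low genes. GCLM per GCLC was compared by exact permutation in scipy 1.17.1. The limma test was tested on simulated reads, where it recovered nearly all changed genes, and in the stability comparison it called more unchanged genes than the nominal rate, mostly genes with fewer TR reads than the members have. Alternatives were other pseudocounts and filters, median centring, separate fits, a replicate block, and each library left out. Added after seeing the data were a crossed block and limma voom on the recovered reads.

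All 10 genes are named, with the 2 highest and 2 lowest called genes of each list in each index (at least 1 RPKM in each parameter), except 1 that is not reported here. The members and lists were chosen with earlier results of these data known. Gene positions came from GENCODE 44 lifted to GRCh37, promoter sites from RefSeq.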

Additional observations from a re-analysis of the deposited data

How the results depend on the processing

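Of 480 alternative fits of an index of the 10 genes, 420 kept direction and side of the threshold, 51 lost the call, 4 gained it and 5 turned sign. The turns were all in genes without a called translation index: TXN gave 0.37 after centring and 0.047 without TA library 1 (range -0.32 to 0.05 with 1 library left out), GCLC -0.02 without RA library 1 and -0.23 without TA library 1 (range -0.23 to 0.76), and GCLM -0.11 without TA library 1 (range -0.11 to 0.50). The turn after centring follows from the shift of 0.50 that centring gives every translation index, and the cause of the others was not tested. Of the 10 genes, 6 were called in translation in the reported fit, 3 with only the libraries compared, 2 with a crossed replicate block, 6 with voom, and 0 to 6 with 1 library left out. For stability the count was 9, with 7 to 10 when 1 library was left out, and for the TA to TR index 10, with 8 to 10. The log2 difference of GCLM per GCLC between TA and RA was -0.07 and ran from -0.32 to 0.27 with 1 library left out, turning to 0.27 without RA library 1 and 0.12 without TA library 1.

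The labels do not pair the samples by replicate number. Differences between replicates 2 and 1 correlated at r = 0.149 for TR with RA, 0.020 for TR with TA and -0.56 for RA with TA. These values are across 10825 genes that are not independent. At -0.56, RA library 2 differed from RA library 1 much as TA library 1 did from TA library 2. The study's scheme splits cells between the assays, but the labels do not say which libraries share a culture. The reported fit treats the libraries as independent. The crossed block, which joins RA library 2 with TA library 1, called 2 of the 10 genes in translation. The replicate block, which leaves RA library 3 without a partner, called 7, 0 and 9 of the 10 genes in stability, translation (3 at an unadjusted p under 0.05) and TA to TR. With the block, the genes called in stability or translation were 8 in place of 14 of glutathione synthesis and use, 2 in place of 10 of the NRF2 regulators and 3 in place of 6 of the other peroxide and superoxide enzymes. With 1 library left out, these counts ran from 9 to 15, 5 to 10 and 4 to 7, from 11 to 20 (reported 17) for other NRF2 targets and from 9 to 15 (reported 13) for the thioredoxin partners. With a library left out, a group of 1 is assumed to vary like the others.

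Over all genes, calls above and below 0 in translation were 953 and 4173 in the reported fit, 109 and 1387 with the block, and 200 to 1030 and 1806 to 4225 with 1 library left out. With at least 1 RPKM required in each parameter, stability calls below 0 were 3656 in place of 6870 and TA to TR calls below 0 were 4935 in place of 8231, with fewer genes tested. Centring gave TA to TR calls of 5436 above and 5044 below in place of 2439 and 8231. Of 320 list counts by direction, 87 moved by more than 1.5 times. The lowest read count of a member was 71, for PRDX4 in TR. As a percentage of the mean, the SD between libraries was larger in RA than in TR for every member except PRDX5. It was 16.0% in TR and 19.9% in RA for PRDX4, and 13.0% and 7.33% for PRDX5. Whether the TR or the RA libraries limit the stability index was not tested.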

Other observations

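Single genes beside the peroxiredoxins differed between replicates of one parameter. They were chosen after their values were seen and do not stand for a pathway: of 18 genes of glutathione synthesis and use, 5 were higher and 13 lower in RA library 2 than in RA library 1, with a median log2 difference of -0.28. In RA, GCLC was 2.25-fold higher in library 2 (80.8 RPKM) than in library 1 (35.9 RPKM), a log2 difference of 1.17 at the 96.5th percentile of all genes tested. SLC7A11, the cystine transporter that feeds glutathione synthesis, was 3.31, 14.2 and 8.52 RPKM in RA libraries 1 to 3, and its partner SLC3A2 66.7, 251 and 141 RPKM. CHAC1, which degrades glutathione, was 4.71, 32.3 and 21.3 RPKM, and SESN2, a sestrin, 8.06, 32.5 and 25.4 RPKM. In each of these 4 genes library 1 was the lowest and library 2 the highest. PRDX1, PRDX2 and PRDX3 were instead highest in library 1, and their log2 differences between libraries 2 and 1 were -0.43, -0.88 and -0.39. PRDX6, TXN and NQO1 were also highest in library 1, with differences of -0.23, -0.12 and -0.33. GCLM was 12.2 RPKM in libraries 1 and 2. PRDX4, at 0.59, and PRDX5, at 0.10, were highest in library 2, as was GCLC.

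Between the TA libraries, GCLC, GCLM, SLC7A11, SRXN1, TXNRD1 and TRIM16 were higher in library 1, with log2 differences of library 2 from library 1 of -0.99, -0.61, -1.16, -0.84, -0.73 and -1.59. GPX4 and GPX1 were higher in library 2, by 1.41 and 1.28. The peroxiredoxins lay between -0.19 (PRDX5) and 0.43 (PRDX2). With 2 or 3 libraries per parameter these differences carry no test.

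NRF2 itself (NFE2L2) was 34.3, 55.1 and 49.99 RPKM in RA and 31.7 and 31.0 RPKM in TA. Its mean TR was 46.7 RPKM and its mean RA 46.4 RPKM.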
